A study of Mus musculus with 59 samples.

Results

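The genes described here encode the cytoskeleton that cells build outside the sarcomere: the proteins that nucleate, cap, sever, bundle and anchor actin filaments, the unconventional myosins, the tubulins, and the intermediate filament protein vimentin. The rule for membership reads the gene symbol alone, and the set of genes was chosen with earlier results of these data known. It took symbols that begin with Arpc, Capz, Coro, Tmsb, Tuba, Tubb or Tubg, or with Actr, Myo, Pfn, Cfl, Tln or Actn followed by a number, together with Capg, Ezr, Msn, Rdx, Vcl and Vim. It found 58 of the 8251 genes that had a probe set of their own on the array, through 82 of 10833 such probe sets. A probe set is the group of short probes that reports a gene, and a gene with several was represented by the probe set with the highest mean. Of the 58 genes, 55 reached an intensity of 108.2 on at least 3 arrays and were among the 6670 genes tested. *Actr1a*, the main filament-forming subunit of dynactin, averaged 46.3, the capping protein gene *Capza3* averaged 18.3 and the class I myosin gene *Myo1e* averaged 14.3, and none of them reached 108.2 on any array.

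The rule is wider than the word nonsarcomeric. It also took 3 genes of muscle fibres, *Actn2*, *Actn3* and *Cfl2*, the nuclear actin-related protein gene *Actr6*, 2 genes of the gamma-tubulin ring complex, *Tubgcp3* and *Tubgcp4*, and the tubulin pseudogene *Tubb2a-ps2*. Tubulin genes are close to identical over long stretches, and the manufacturer's suffix on many tubulin probe sets marks probes shared with other sequences, so values within this family are uncertain as to the gene. *Myo5a* reached the filter on 8 arrays, none of them sham, so its test is not independent of the filter. It stays in the counts of members that follow wherever it was called.

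Actin filaments and microtubules are polymers that cells assemble and take apart in order to crawl, divide, spread and pull. The Arp2/3 complex starts new branches on existing filaments, capping proteins stop growth at the fast-growing end, cofilins sever old filaments, and thymosins and profilins bind the free monomer. Microtubules are built of alpha- and beta-tubulin pairs and start from gamma-tubulin rings. In the heart, cardiomyocytes hold most of their actin in sarcomeres, while leukocytes that enter an infarct and the fibroblasts that lay down the scar rely on nonsarcomeric filaments.

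RNA from mouse hearts was measured on 59 Affymetrix oligonucleotide arrays, between 1 h and 8 weeks from surgery. The times were 1 h, 4 h, 24 h, 48 h, 1 week and 8 weeks. Infarct samples were left ventricle from the level of the left anterior descending artery down to the apex in mice with a myocardial infarction (18 arrays, 3 at each time). Remote samples were the left ventricle above it in mice with an infarction (18 arrays). Sham upper samples came from the matching upper region of sham-operated mice (18 arrays), which the labels give as the control for both. Sham lower samples came from the region that matches the infarct (5 arrays, 1 at each time but 8 weeks). Sham without a further word means sham upper. The labels name no strain, age, sex, allele or drug for any group. They do not say whether arrays with different title numbers are separate mice, so p-values measure the spread between these samples, which may be technical. Infarct and remote arrays mostly share their title numbers, which entered the fit as a random block. Cardiomyocyte markers, 13 genes on the array, were present in every group: their summed intensity was 26636 to 262696 on infarct arrays, 161473 to 239055 on remote arrays, 189572 to 271988 on sham lower arrays and 196978 to 287522 on sham upper arrays.

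Intensities were on the scale the authors deposited, on which the 59 array medians lay between 156.9 and 214.4. They rank arrays for 1 probe set and were not compared between genes. A log2 change is a difference of means of log2(intensity + 45.6), which understates the change of dim genes. It is given with its standard error (SE), and a gene is called where limma's moderated test gave an adjusted p below 0.05 over the 6670 genes. The arrays of a group are listed in the order of their title numbers, and 3 arrays in a group limit the precision of every value.

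At 24 h, 48 h and 1 week the infarct differed from sham in most of the tested cytoskeleton genes, and most of those that differed were higher. At 1 h, 2 members were higher and 1 lower, with 6.78% of all genes called (3.66% higher and 3.12% lower). At 4 h, 6 were higher and 4 lower, with 11.9% of all genes called (5.25% higher and 6.69% lower). At 24 h, 24 were higher and 7 lower, which is 56.4% of the 55, against 42.6% of all genes. At 48 h, 30 were higher and 7 lower (67.3% of the 55, against 50.9% of all genes). At 1 week, 30 were higher and 9 lower (70.9% of the 55, against 60.5% of all genes), and at 8 weeks 18 were higher and 2 lower (36.4% of the 55, against 21.1% of all genes). From 24 h to 8 weeks the higher counts include *Myo5a*, whose test is not independent of the filter. Among all genes 18.6% were higher and 24% lower at 24 h, 25.1% higher and 25.8% lower at 48 h, 34.9% higher and 25.7% lower at 1 week, and 11.5% higher and 9.66% lower at 8 weeks. The median log2 change of the 55 was 0.36 at 24 h, 0.44 at 48 h, 0.63 at 1 week and 0.23 at 8 weeks, beside -0.02, -0.04, 0.11 and -0.01 for all genes. Leaving out 1 array moved these counts by more than 1.5 times at the early and last times: without 1 of the sham arrays 1 member was called at 1 h and 6 at 4 h, and without the third infarct array 11 were called at 8 weeks.

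Separation of the 3 infarct arrays from the 3 sham arrays, which describes single genes here, was common: it held for 46.9% of all genes at 24 h, 58.5% at 48 h and 69.1% at 1 week.

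Over the 6 times, 34 of the 55 were higher in the infarct than in sham at 1 or more times, 12 were lower, 1 of these (*Arpc1a*) did both, and 10 were called at no time. The 34 include *Myo5a*. Among all genes 46.2% were higher at 1 or more times, 42.1% were lower and 18.7% were called at no time. *Arpc5* was the member called at each of the 6 times. Among members that were called, the largest change came at 1 week for 19 of those whose largest change was a rise, and at 48 h for 10, 24 h for 3 and 1 h for 1. For those whose largest change was a fall it was at 1 week for 7, at 24 h for 2, and at 1 h, 4 h and 48 h for 1 each. The time of the largest change was not counted for all genes, which also had their most calls at 1 week (60.5%).

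The region of the heart differs between infarct and sham upper. When the 1 sham lower array of the same time served alone as the control, 80 of the 120 member calls made between 1 h and 1 week were still called in the same direction (66.7%, beside 57.3% of the calls of all genes). The change was smaller by more than 1.5 times or turned its sign for 31 of the 120 (25.8%, beside 25.9% for all genes). In that fit the single array is assumed to vary as the other groups do. Its values stand beside some of the members they touch, but not all. A call printed without such a value was not always kept, as for *Vcl* at 1 week (0.11 against sham lower).

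**Figure D1:**
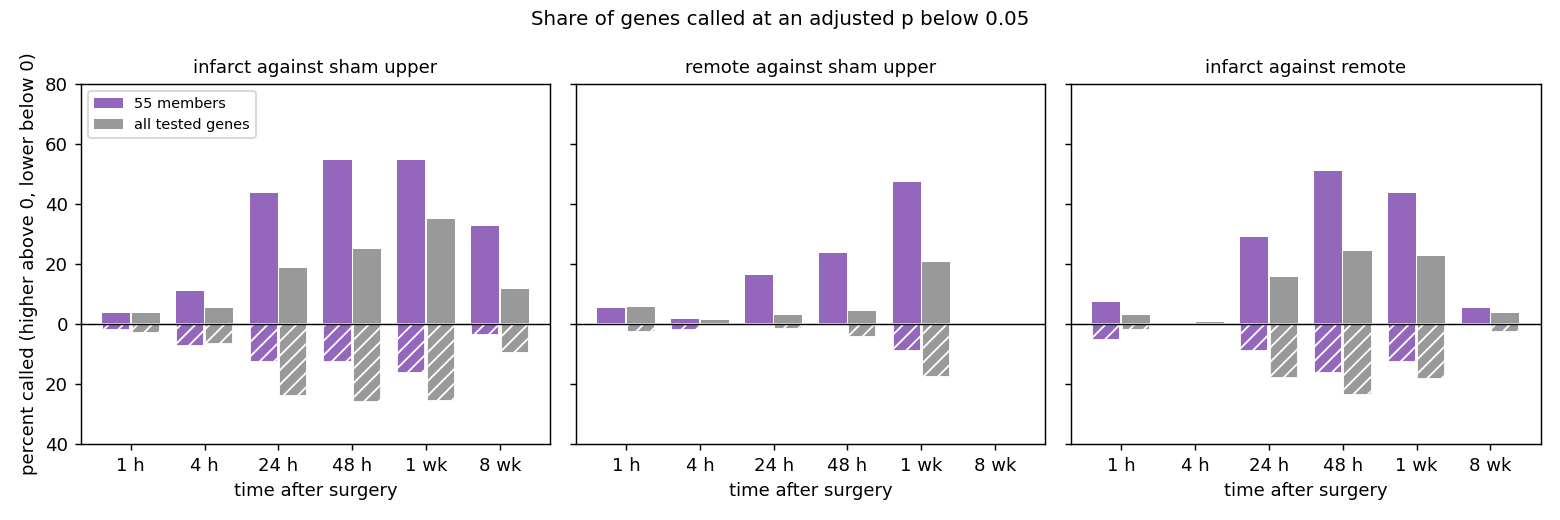
Percent of genes called at each time after surgery, higher above 0 and lower (hatched) below 0, for the 55 tested cytoskeleton genes and for all 6670 genes, in infarct against sham upper, remote against sham upper and infarct against remote. The infarct and remote panels use the same sham arrays. At 48 h in the infarct 67.3% of the members were called, beside 50.9% of all genes.

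**Figure D2:**
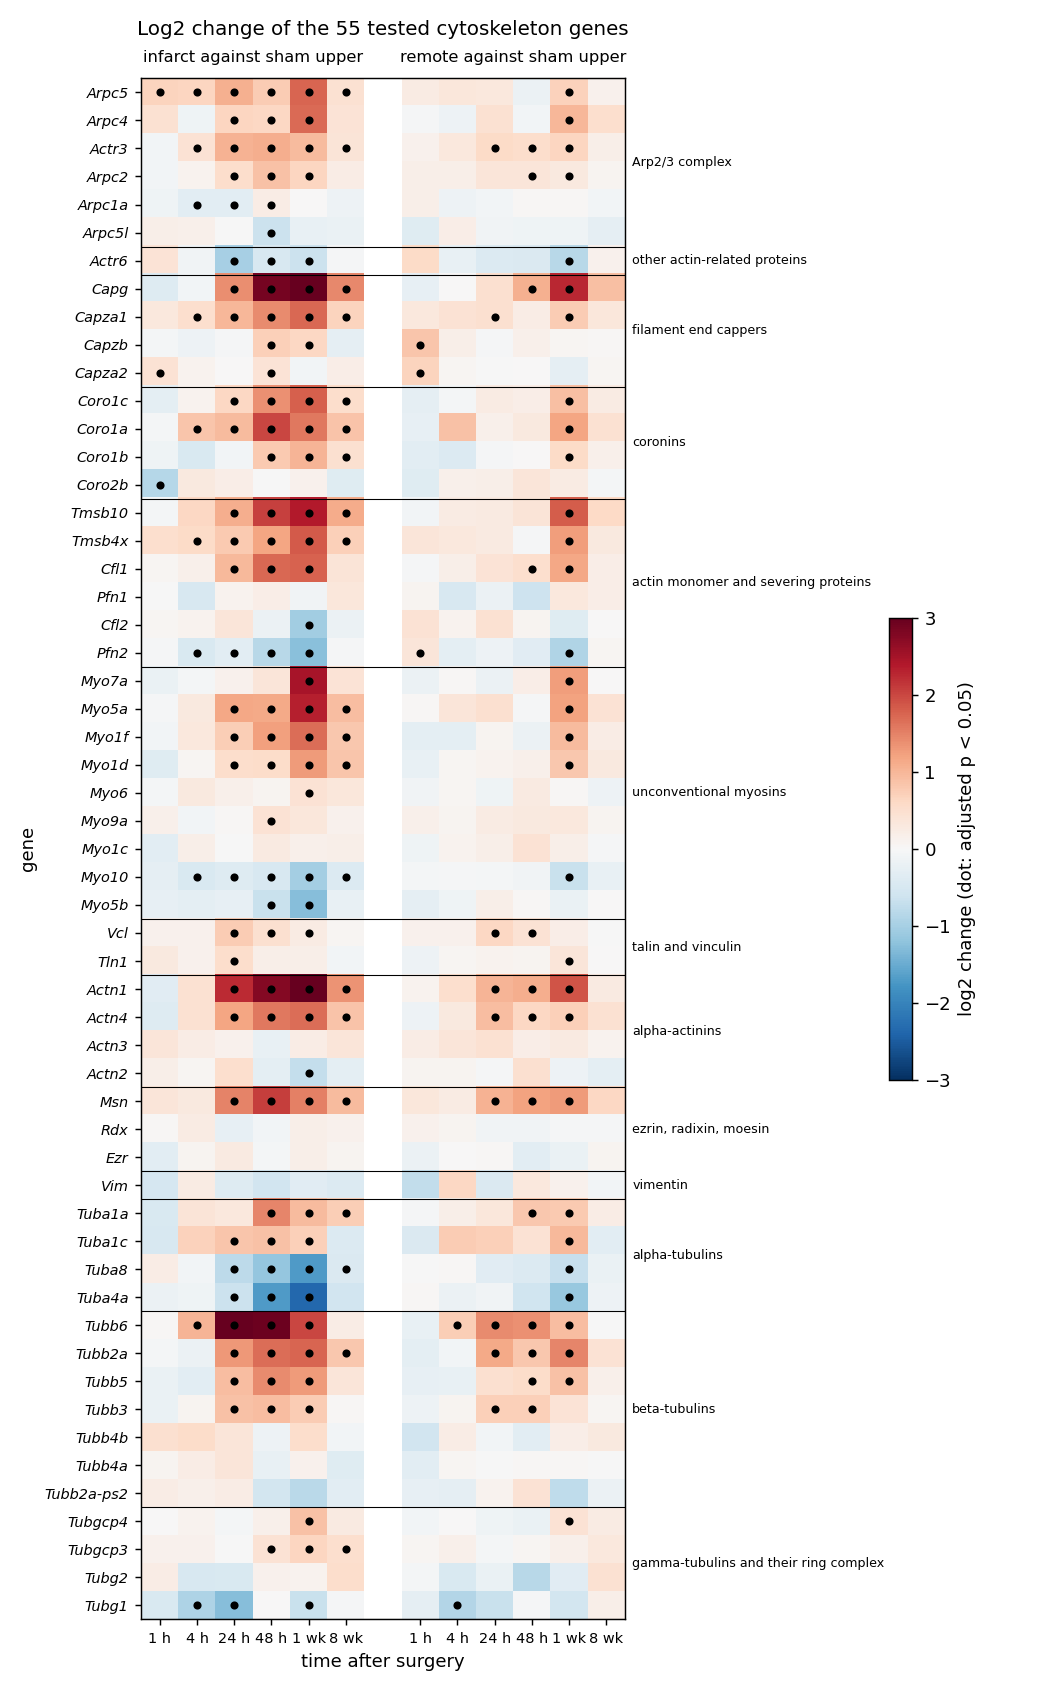
Log2 change of each of the 55 tested genes (rows, grouped by role) at 6 times (columns), infarct against sham upper on the left and remote against sham upper on the right. Dots mark an adjusted p below 0.05, and the colour scale ends at 3 in either direction. Most dots at 24 h to 1 week are red, the blue rows with several dots include *Tuba4a*, *Tuba8*, *Pfn2* and *Myo10*, and the remote columns fill at 1 week.

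Markers of other cells moved at the same times, and their part in the results was not tested. The labels call the samples left ventricle, and in such bulk tissue fewer cells of a type and less RNA per cell cannot be told apart. Of 14 pan-leukocyte genes tested, 13 were higher in the infarct at 1 week and none lower. Their summed intensity was 19554, 20462 and 23442 on infarct arrays, 9884, 9932 and 14244 on remote arrays and 3049, 3189 and 3701 on sham arrays. Of 13 genes of fibroblasts and myofibroblasts, 11 were higher and 1 lower, with sums of 79142, 80066 and 88502 in infarct, 77869, 89796 and 91253 in remote and 23859, 24417 and 25170 in sham. All 19 macrophage genes tested and 19 of 20 cell cycle genes were higher at 1 week. Of 13 cardiomyocyte genes 11 were lower and 1 higher, with sums of 88911, 93046 and 26636 in infarct, 202394, 203838 and 161473 in remote and 244828, 224687 and 207503 in sham. The third infarct array had the lowest cardiomyocyte sum of the series. Of the 30 higher and 9 lower members called at 1 week, some had their lowest infarct value of that time on it. These were *Actn2*, *Capzb*, *Cfl2*, *Coro1c*, *Myo10*, *Myo5a*, *Myo5b*, *Pfn2*, *Tuba4a*, *Tuba8*, *Tubb2a*, *Tubb3* and *Tubb6*. Every gene is lowest on some array of its group, so part of this list is to be expected without any link to the sum. The share of all genes lowest on that array was not counted. A link to the sum was not tested, here or where single genes below are given as lowest on that array. None of the 55 genes is on a marker list. Lists for neutrophils, lymphocytes, smooth muscle and pericytes, endothelium and adipocytes were also drawn up, and their values are not given here.

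**Figure D3:**
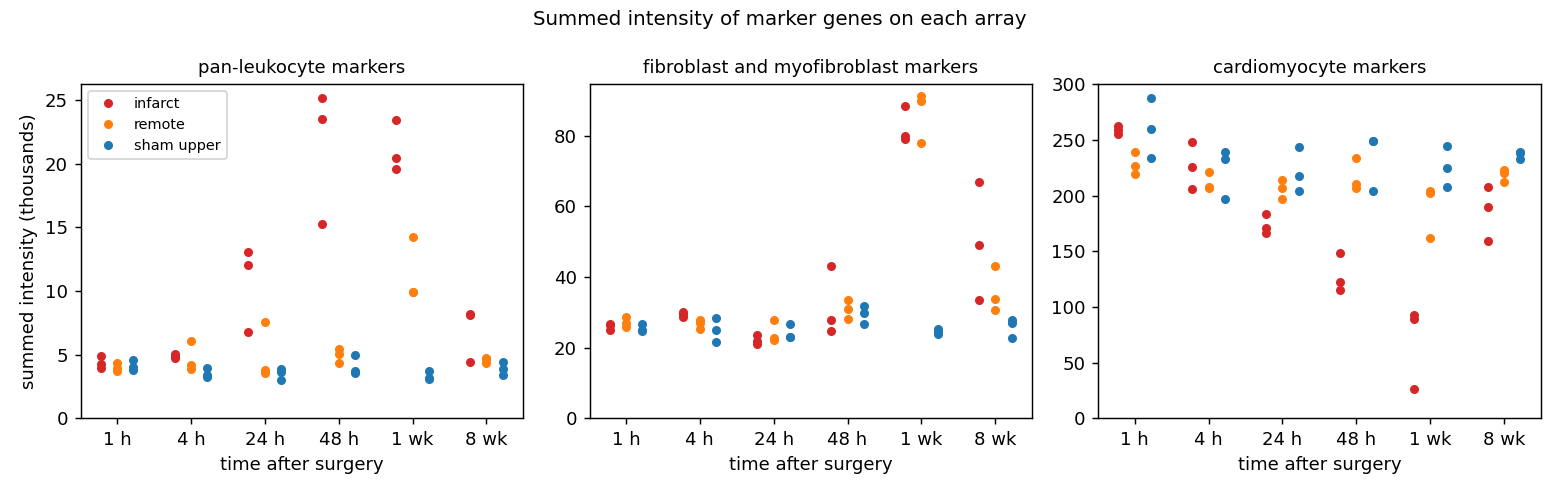
Summed intensity, on an axis counted in units of 1000, of the pan-leukocyte, fibroblast and myofibroblast, and cardiomyocyte marker genes on each array at 6 times after surgery. Points are single arrays, red for infarct, orange for remote and blue for sham upper. Leukocyte sums in the infarct stood above every sham array at 24 h, 48 h and 1 week, fibroblast sums were high at 1 week in infarct and remote alike, and the 3 infarct arrays at 1 week lay at 88911, 93046 and 26636 for cardiomyocyte genes.

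Of the 6 Arp2/3 genes measured, 4 were higher in the infarct at 24 h and 1 lower, 5 were higher and 1 lower at 48 h, 4 were higher at 1 week and 2 at 8 weeks. *Arpc5* encodes one of the small subunits of the complex. Its intensity at 1 h was 648, 549.5 and 749 on infarct arrays, 495, 516.6 and 399.5 on remote arrays and 376, 395.4 and 388 on sham arrays, a log2 change of 0.68 ± 0.14 for infarct against sham (adjusted p = 0.00142). Every infarct array was above every sham upper array at 1 h, but the sham lower array read 639, above 1 infarct array, and against it alone the log2 change was 0.01, with no call. At 4 h it was 803, 809 and 792 in infarct, 710.0, 506.5 and 707 in remote and 535, 471 and 474 in sham (0.65 ± 0.14, adjusted p = 9.42e-04), and 696 in sham lower (0.21 against it alone, adjusted p = 0.791). At 1 week *Arpc5* stood at 1399.6, 1289.5 and 1417 in infarct, 617, 546 and 734 in remote and 338.7, 375 and 413 in sham, with a log2 change of 1.75 ± 0.14 for infarct (3.65-fold, adjusted p = 3.20e-14). The 3 groups did not overlap at that time, and the sham lower array read 768 (0.81 against it alone, adjusted p = 5.70e-04). Sham lower was above sham upper in 4 of 5 pairs (0.41, unadjusted p = 0.0193, adjusted p = 0.271).

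*Arpc4*, which encodes a core subunit, was 2749, 2960.0 and 2814 in infarct, 1658, 1804 and 1697 in remote and 887, 774 and 862 in sham at 1 week (3.38-fold for infarct against sham, log2 change 1.70 ± 0.19, adjusted p = 5.41e-10). The remote arrays lay between the other groups, with no overlap. Its sham arrays at 1 h spread from 661.9 to 1413, and its call at 24 h (log2 change 0.65) turned to -0.12 when the 1 sham lower array at 24 h served as the control. *Actr3*, the Arp3 subunit that with Arp2 forms the seed of a branch, was called from 4 h on: the log2 change was 0.42 at 4 h, 1.05 at 24 h, 1.10 at 48 h, 0.95 at 1 week and 0.39 at 8 weeks, and no infarct array overlapped a sham upper array at any of these times. The change at 4 h was 0.26 against the sham lower array alone, with no call. *Arpc2*, a scaffold subunit, was also higher, with 7586, 7189.9 and 7261 in infarct, 4942, 5641 and 4736 in remote and 3886, 3655 and 4308 in sham at 48 h (log2 change 0.89 ± 0.11, adjusted p = 1.57e-08).

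The other 2 Arp2/3 genes were each called lower at 1 or more times. *Arpc1a*, one of a pair of genes for the p41 subunit, was lower in the infarct at 4 h, at 496, 467 and 465 in infarct, 546, 552 and 542 in remote and 656, 617 and 554 in sham (log2 change -0.33 ± 0.09, adjusted p = 0.0127). It was lower at 24 h (-0.31 ± 0.09, adjusted p = 0.00545) and higher at 48 h (0.22 ± 0.09, adjusted p = 0.0422). The infarct and sham upper arrays did not overlap at these 3 times. The sham lower array at 24 h read 585, inside the infarct range of 492.4 to 590.5. Against sham lower alone the change was -0.23 at 4 h, -0.08 at 24 h and 0.27 at 48 h, none of them called. Sham lower was below sham upper in 5 of 5 pairs (-0.19, unadjusted p = 0.0504, adjusted p = 0.347). *Arpc5l*, the relative of *Arpc5*, fell at 48 h to 306, 254 and 264 in infarct, against 441, 418 and 503 in sham (log2 change -0.64 ± 0.16, adjusted p = 7.85e-04). The difference between *Arpc5* and *Arpc5l* was not tested.

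Of the 4 capper genes tested, 2 were higher in the infarct at 24 h, 4 at 48 h, 3 at 1 week and 2 at 8 weeks, and none was lower at these times. *Capg* (chromosome 6, 72538282 to 72562983 in GRCm38.p6) encodes a capper of the gelsolin family that is abundant in macrophages and does not sever filaments. At 24 h its intensity was 889.9, 813 and 369 in infarct, 326.3, 248.8 and 464 in remote and 262, 203 and 205 in sham (log2 change 1.39 ± 0.26, adjusted p = 3.30e-05). At 48 h it was 1900.3, 2133 and 1495 in infarct, 484, 510.6 and 474 in remote and 186, 183 and 275 in sham (2.86 ± 0.26, adjusted p = 1.09e-11). At 1 week the infarct arrays read 1926, 2119.6 and 1979, the remote arrays 810.0, 995 and 1278 and the sham arrays 176, 189 and 164, an 11.4-fold difference between infarct and sham (log2 change 3.21 ± 0.26, adjusted p = 1.04e-13), the largest positive log2 change of the 55 genes at any time. At 48 h and 1 week the 3 groups did not overlap. At 8 weeks infarct arrays spread over 250.3, 546 and 888, beside 373, 215 and 433 in remote and 180.1, 150.0 and 139 in sham (1.44 ± 0.26, adjusted p = 1.58e-04). A dimmer *Capg* probe set rose as well (1.89 at 1 week), and another, at a mean of 71.9, gave -0.08 with no call.

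CapZ, the general capper of the fast-growing filament end, is a pair of an alpha and a beta subunit. The alpha subunit gene *Capza1* was 3044, 3491 and 3368 in infarct, 1403, 1483 and 2242 in remote and 943, 969.5 and 999 in sham at 1 week (log2 change 1.72 ± 0.13, adjusted p = 1.02e-14). The groups did not overlap, and *Capza1* was called from 4 h to 8 weeks. The alpha subunit gene *Capza2* was higher at 1 h, at 1498, 1985 and 1739 in infarct, 2186, 1962 and 2000.3 in remote and 1231, 1209 and 1398 in sham. Its log2 change at 1 h was 0.42 ± 0.12 in infarct (adjusted p = 0.0267) and 0.66 ± 0.12 in remote (adjusted p = 5.23e-04), both against the same sham arrays, which were the lowest sham group of the 6 times for this gene, and the infarct change was not called against the sham lower array (0.38). *Capzb*, the beta subunit gene, was 1247, 1483 and 738 in infarct, 2138, 2195 and 1979.9 in remote and 1145, 713 and 1913 in sham at 1 h, and it was called in remote (0.83 ± 0.25, adjusted p = 0.0293). It was higher in the infarct at 48 h (0.72 ± 0.25, adjusted p = 0.0142) and 1 week (0.63 ± 0.25, adjusted p = 0.0265), and a dim probe set, with a mean of 72.9, was lower at both times (-0.67 and -0.70).

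Coronins bind filaments and regulate branching and turnover. Of 4 coronin genes 2 were higher in the infarct at 24 h and 3 at each time from 48 h to 8 weeks. *Coro1a*, the coronin of leukocytes, was 318, 180.5 and 249.7 in infarct, 339.6, 243 and 196 in remote and 135, 62.6 and 170.0 in sham at 4 h (0.84 ± 0.28, adjusted p = 0.0405). At 48 h it was 1591, 1314 and 890.4 in infarct, 465, 439.8 and 199 in remote and 282, 207 and 350.1 in sham (4.53-fold for infarct, log2 change 2.0 ± 0.28, adjusted p = 1.15e-07). Every infarct array exceeded every sham upper array at both times, and every remote array at 48 h. The sham lower array at 4 h, at 235, lay inside the infarct range, and the change against it alone was 0.07 (adjusted p = 0.990). At 1 week the remote arrays were also above sham, at 886, 855 and 942 in infarct, 703, 534 and 782 in remote and 278, 282 and 248 in sham. *Coro1c*, a coronin of many cell types, was highest at 1 week, with 2403, 2470.4 and 2206 in infarct, 975, 1189.9 and 1653 in remote and 578, 641 and 718 in sham (log2 change 1.80 ± 0.18, adjusted p = 1.39e-11). *Coro1b* was called at 48 h (0.80), 1 week (1.01) and 8 weeks (0.47). *Coro2b*, a coronin of neurons, was dim: at 1 h it was 37.1, 107 and 115 in infarct, 124, 118 and 154 in remote and 194, 128 and 243 in sham (-0.86 ± 0.24, adjusted p = 0.0230). The sham lower array read 105, inside the infarct range (-0.20 against it alone, no call), and *Coro2b* was not called at any later time.

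Of the 6 genes for proteins that hold monomers or sever filaments, 3 were higher and 1 lower in the infarct at 24 h and at 48 h, 3 were higher and 2 lower at 1 week, and 2 were higher at 8 weeks. The thymosin gene *Tmsb10* was 6876, 8674 and 5402 in infarct, 2257, 2691 and 1663 in remote and 1452, 1514 and 1979.6 in sham at 48 h. It was 7332, 8378 and 9372 in infarct, 4381, 5157 and 7791 in remote and 1361, 1340.3 and 2068 in sham at 1 week. Its log2 change in the infarct was 2.04 ± 0.24 at 48 h (adjusted p = 1.97e-09) and 2.38 ± 0.24 at 1 week (adjusted p = 1.42e-11), and by 1 week remote arrays too were all above sham. At 8 weeks it was 2338, 3588 and 4456 in infarct, 2358, 2098 and 2546 in remote and 1892, 1502 and 1218 in sham (1.12 ± 0.24, adjusted p = 7.13e-04). *Tmsb4x*, which encodes the main monomer-binding thymosin, was 5799, 5228 and 5131 in infarct, 4582, 4561 and 4344 in remote and 4015, 3599.7 and 3296 in sham at 4 h (0.56 ± 0.17, adjusted p = 0.0188). It reached 10361, 11926 and 12568 in infarct at 1 week, beside 6479, 7321 and 9467 in remote and 2769, 3094 and 3753 in sham (3.63-fold for infarct, log2 change 1.85 ± 0.17, adjusted p = 1.04e-12). It was called at every time but 1 h, each time with infarct wholly above sham upper, but not at 4 h (0.35) or 24 h (0.49) against the sham lower array alone.

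*Cfl1*, the cofilin of non-muscle cells, was 6179, 6513 and 6786 in infarct, 3541, 4768 and 4570.3 in remote and 1437, 2021 and 2247 in sham at 1 week (log2 change 1.77 ± 0.17, adjusted p = 6.37e-12). *Cfl2*, the muscle cofilin, was 1163, 1162 and 731 in infarct, 1596, 2036 and 1297 in remote and 2073, 2027 and 2225 in sham (-1.05 ± 0.17, adjusted p = 8.99e-07). One gene was above and the other below sham without overlap, *Cfl2* was lowest on the infarct array with the lowest cardiomyocyte sum, and the difference between the 2 genes was not tested. *Pfn2*, a profilin best known from neurons, fell at 4 h, 24 h, 48 h and 1 week against sham upper, and its change against the sham lower array alone was -0.54, -0.13, -0.66 and -0.81 at these times, not called at 4 h and 24 h. At 4 h it was 318, 400.0 and 380.2 in infarct, 424, 344 and 502 in remote and 558, 428 and 588 in sham (-0.46 ± 0.12, adjusted p = 0.00518). At 48 h *Pfn2* was 338, 294 and 348 in infarct, 498, 466 and 472 in remote and 684, 582 and 595 in sham (-0.84 ± 0.12, adjusted p = 8.62e-08). In the 1-week groups it was 252, 269.6 and 244 in infarct, 302, 341 and 361.4 in remote and 737, 638 and 632 in sham, a log2 change of -1.25 ± 0.12 in infarct (2.62-fold lower, adjusted p = 2.80e-12) and -0.91 ± 0.12 in remote (adjusted p = 6.69e-08). Infarct, remote and sham were separate at 1 week. The infarct array with the lowest cardiomyocyte sum read 244, beside 252 and 269.6 on the others, and a link to that sum was not tested. *Pfn1*, the general profilin, was dim and variable on this array (76.2 to 241 on the infarct arrays at 4 h) and was not called against sham at any time.

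Of 9 unconventional myosin genes tested, 5 were higher and 2 lower in the infarct at 1 week, and *Myo5a*, which passed the filter only through arrays where it is high, is counted among the 5. *Myo7a*, a motor known from hair cells and retina, was not called before 1 week. At 1 week it was 1227, 1334 and 1575 in infarct, 503, 555 and 631 in remote and 203, 209.9 and 217 in sham (6.57-fold for infarct, log2 change 2.47 ± 0.18, adjusted p = 7.02e-15; for remote 1.25 ± 0.18, adjusted p = 9.62e-07). The 3 groups were separate, and at 8 weeks infarct arrays read 335, 336 and 645, beside 303, 342 and 272 in sham, with no call (adjusted p = 0.103). *Myo5a*, a carrier of vesicles and organelles, was 279, 297 and 277 in infarct, 97.4, 101 and 116 in remote and 17.5, 32.2 and 11.2 in sham at 1 week, with sham near background. No test is given for it, because no sham array reached the filter. *Myo1f*, a class I myosin of leukocytes, was 524, 546 and 557 in infarct, 313, 270.2 and 341 in remote and 92.1, 192 and 145 in sham (1.68 ± 0.28, adjusted p = 1.53e-06), and every infarct array was above every other array at that time.

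*Myo1d*, another class I motor, was called from 24 h to 8 weeks, with 1.27 ± 0.18 at 1 week. *Myo6*, which walks toward the slow-growing filament end, was called at 1 week (0.44 ± 0.16, and 0.07 with no call against the sham lower array alone), although 2 other probe sets for it were not (-0.08 and -0.25) and were lower at 48 h (-0.44 and -0.88). *Myo10*, the motor of filopodia, was called lower than sham upper at each time from 4 h to 8 weeks. The sham lower arrays read 701, 662.6, 639 and 800.2 from 4 h to 1 week, below sham upper in 5 of 5 pairs (-0.33, unadjusted p = 0.00913, adjusted p = 0.227). Against them alone the infarct change was -0.31, -0.12 and -0.20 with no call, and -0.54 at 1 week (adjusted p = 0.0295). At 4 h it was 607, 456 and 623 in infarct, 670.1, 865 and 779 in remote and 791, 861 and 712 in sham (-0.46 ± 0.15, adjusted p = 0.0289). It averaged 535 ± 28.4 (SD) in infarct at 1 week, beside 638, 746 and 683 in remote and 1146, 1094 and 1137 in sham (-1.01 ± 0.15, adjusted p = 1.11e-07; for remote -0.67 ± 0.15, adjusted p = 2.82e-04). The 3 groups were separate at 1 week, and the lowest infarct value was on the array with the lowest cardiomyocyte sum. At 8 weeks it was 763, 699.7 and 578 in infarct, 884, 726 and 751 in remote and 930.0, 853 and 977 in sham (-0.42 ± 0.15, adjusted p = 0.0361). *Myo5b*, a motor of recycling endosomes, fell to 225, 192 and 100 in infarct at 1 week, against 482, 469.5 and 286 in remote and 413, 462 and 527 in sham (-1.28 ± 0.16, adjusted p = 8.18e-09), with its lowest value on the array with the lowest cardiomyocyte sum. A dimmer *Myo5b* probe set was not called at 1 week (0.05). *Myo9a* was called at 48 h only (0.44), a call that went to -0.01 against the sham lower array alone, and *Myo1c* was not called.

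Alpha-actinins cross-link filaments. Of 4 genes, the same 2 (*Actn1* and *Actn4*) were higher in the infarct at each time from 24 h to 8 weeks, and *Actn2* was lower at 1 week. *Actn1* (chromosome 12, 80167542 to 80260420 in GRCm38.p6), a form of non-muscle cells and of smooth muscle, was not called at 1 h or 4 h. At 24 h it was 4052, 4232 and 2497 in infarct, 1233, 1529 and 1865 in remote and 661, 672.2 and 822 in sham (2.24 ± 0.24, adjusted p = 5.26e-10). The third infarct array, lowest of its group here as for *Msn* and *Capg*, also had the lowest pan-leukocyte sum (12032, 13076 and 6790). This is 1 array, and a link between the values was not tested. At 48 h *Actn1* was 5260.2, 4972 and 4235 in infarct, 1348, 1470.2 and 1654 in remote and 575, 684 and 796 in sham (2.74 ± 0.24, adjusted p = 2.84e-12). At 1 week *Actn1* was 5484, 6301 and 6294 in infarct, 2054, 2559.8 and 3417 in remote and 784, 584 and 660.2 in sham (8.91-fold for infarct, 3.08 ± 0.24, adjusted p = 2.34e-14; for remote 1.89 ± 0.24, adjusted p = 5.83e-08). The 3 groups did not overlap from 24 h to 1 week, and 2 further *Actn1* probe sets rose at 1 week by 3.34 and 2.24 on the log2 scale. At 8 weeks the infarct arrays read 892, 1515 and 3369.5, the remote arrays 641, 696 and 959.7 and the sham arrays 581, 714 and 584 (1.35 ± 0.24, adjusted p = 1.03e-04). The third infarct array, which also had the highest fibroblast sum of its group (33350, 49014 and 66906), was far above the others. A link to that sum was not tested either.

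*Actn4*, the second non-muscle form, was 2633, 2779 and 1948 in infarct, 1056, 1193 and 1469.8 in remote and 728, 796 and 821 in sham at 48 h (1.58 ± 0.17, adjusted p = 2.72e-10). *Actn2*, which anchors filaments at the cardiac Z disc, was 188, 241 and 64.3 in infarct, 310.4, 341 and 130.1 in remote and 252, 281 and 295 in sham at 1 week (-0.72 ± 0.25, adjusted p = 0.0109). Infarct lay below sham upper without overlap. The sham lower array read 185, below 2 of the 3 infarct arrays, and against it alone the change was -0.23 (adjusted p = 0.632). The third array was lowest in both infarct and remote, the infarct one being the array with the lowest cardiomyocyte sum. *Actn3*, of fast skeletal fibres, stayed near background and was not called.

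Vinculin and talin hold filaments at adhesions, and in the heart vinculin also sits at costameres and intercalated discs. *Vcl* (chromosome 14, 20929383 to 21033676 in GRCm38.p6) was 6770.4, 6497 and 5274 in infarct, 5953, 6594 and 4437 in remote and 3454, 3684 and 3626 in sham at 24 h. The log2 change at 24 h was 0.75 ± 0.10 in infarct (adjusted p = 1.21e-07) and 0.62 ± 0.10 in remote (adjusted p = 8.12e-05), against the same sham arrays. Infarct and remote overlapped each other, and both lay wholly above sham. The infarct change was 0.48 at 48 h and 0.24 at 1 week, so unlike most rising members it was largest at 24 h, and a second *Vcl* probe set ran the same way (1.12 at 24 h and 0.58 at 1 week). *Tln1* was 3572, 4111 and 3464 in infarct, 2598, 2953 and 2688 in remote and 2524, 2582 and 2528 in sham at 24 h (0.53 ± 0.11, adjusted p = 7.06e-05), and the change was 0.14 with no call against the sham lower array alone. At 1 week its 3 probe sets disagreed in the infarct, at 0.17 with no call, 0.37 and -0.45.

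RefSeq start-site windows of 300 bases, from 250 before to 50 after the start in GRCm38.p6, were matched for 49 of the 58 genes (58 windows). The binding motif of serum response factor, the CArG box, was searched on both strands because this factor is a textbook regulator of actin cytoskeleton genes, and it was present in 3 of the 58 windows (5.17%), beside 1.63% of 32851 windows of all genes. The members holding it were *Vcl*, *Arpc4* and *Myo1e*. The GC box core GGGCGG was in 69% of the members' windows, beside 35.7% of all, CCAAT in 29.3%, beside 37.4%, and TATAAA in 6.9%, beside 13.6%, each counted on either strand. A match is a description of letters and not a site in use. The windows of *Vcl*, called in infarct and remote at 24 h, and of *Arpc4*, with its largest change at 1 week, are printed with the CArG box in capitals, and that of *Tuba4a*, the most strongly lowered member, with GGGCGG or its reverse complement in capitals. *Vcl* is at chr14:20929148-20929447 on the plus strand, *Arpc4* at chr6:113377863-113378162 on the plus strand and *Tuba4a* at chr1:75219245-75219544 on the minus strand.
Vcl: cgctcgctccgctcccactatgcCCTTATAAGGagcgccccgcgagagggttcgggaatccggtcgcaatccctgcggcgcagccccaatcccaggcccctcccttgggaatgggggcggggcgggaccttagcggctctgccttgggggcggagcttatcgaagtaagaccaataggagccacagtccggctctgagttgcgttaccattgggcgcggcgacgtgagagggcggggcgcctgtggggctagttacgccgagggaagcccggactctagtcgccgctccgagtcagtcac
Arpc4: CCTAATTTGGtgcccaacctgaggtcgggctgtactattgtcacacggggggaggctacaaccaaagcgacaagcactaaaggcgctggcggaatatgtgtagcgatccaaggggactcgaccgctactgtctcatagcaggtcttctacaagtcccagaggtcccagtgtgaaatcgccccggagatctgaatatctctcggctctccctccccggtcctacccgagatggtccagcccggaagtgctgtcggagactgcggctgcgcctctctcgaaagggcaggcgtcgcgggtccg
Tuba4a: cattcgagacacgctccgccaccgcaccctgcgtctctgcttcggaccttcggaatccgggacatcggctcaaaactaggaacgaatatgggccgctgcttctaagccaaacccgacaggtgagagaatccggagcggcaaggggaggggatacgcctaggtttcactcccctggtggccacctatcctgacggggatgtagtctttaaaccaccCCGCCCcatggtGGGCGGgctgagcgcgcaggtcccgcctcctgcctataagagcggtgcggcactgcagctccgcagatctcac

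Moesin, ezrin and radixin tie the plasma membrane to actin, and moesin is the form of leukocytes and endothelium. *Msn* was 6140.1, 5962 and 3685 in infarct, 3604, 4026 and 3877 in remote and 2267, 1665 and 1576 in sham at 24 h (1.48 ± 0.16, adjusted p = 9.13e-10). It was 7177, 7338 and 7399 in infarct, 4477, 3730.4 and 3798 in remote and 1653, 1424 and 2053 in sham at 48 h (4.27-fold for infarct, 2.08 ± 0.16, adjusted p = 1.66e-13; for remote 1.22 ± 0.16, adjusted p = 1.59e-06). The 3 groups were separate at 48 h, and infarct arrays lay wholly above sham upper at each of the 6 times, with calls from 24 h on. The sham lower array at 1 h read 2052, above every infarct array of that time, and against it alone the change was -0.16. Sham lower was above sham upper in 5 of 5 pairs (0.34, unadjusted p = 0.0092, adjusted p = 0.227). At 8 weeks *Msn* was 2168, 3489 and 3316 in infarct, 2029, 2208 and 2867 in remote and 1602, 1508 and 1389.8 in sham (0.95 ± 0.16, adjusted p = 6.78e-05). *Ezr* and *Rdx* were not called against sham at any time. At 48 h *Ezr* was 1103, 800.1 and 768 in infarct, 734, 693 and 731 in remote and 824, 1002 and 919 in sham (log2 change -0.05 ± 0.14, adjusted p = 0.776). *Rdx* was 1750.4, 1921 and 1547 in infarct, 1934, 1849.5 and 1407 in remote and 1687, 2052 and 1832 in sham (log2 change -0.09 ± 0.10, adjusted p = 0.478). The infarct and sham arrays overlapped for both. *Vim*, the intermediate filament protein of mesenchymal cells and leukocytes, was read by a probe set with a mean of 111.3 that reached 108.2 on 30 of the 59 arrays. *Vim* at 1 week was 92.2, 84.6 and 61.3 in infarct, 157, 144 and 84.6 in remote and 109.5, 121 and 106 in sham, with no call against sham at any time, so vimentin is reported here only near background.

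**Figure D4:**
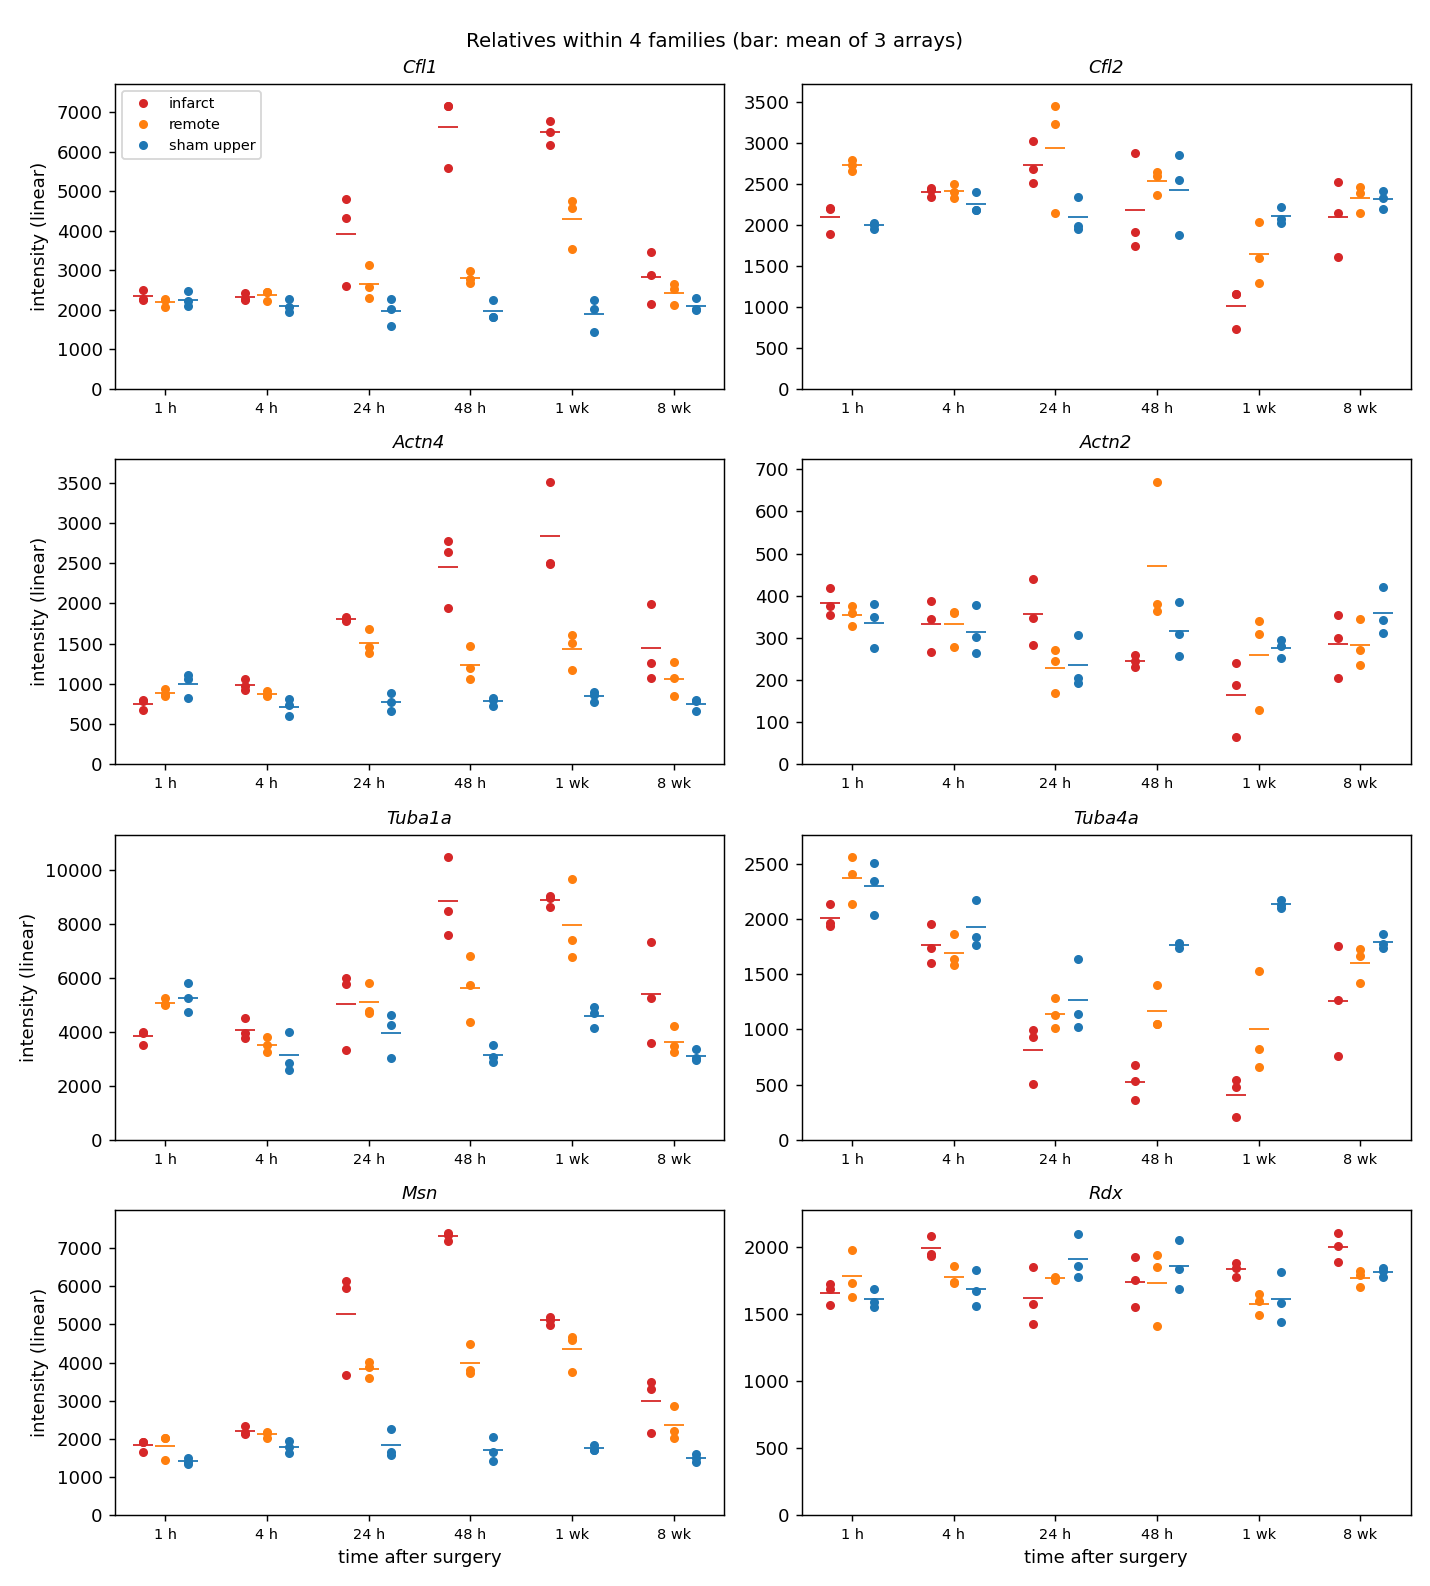
Intensity on each array at 6 times for pairs of related genes: *Cfl1* and *Cfl2*, *Actn4* and *Actn2*, *Tuba1a* and *Tuba4a*, *Msn* and *Rdx*. Points are single arrays and bars are means of 3 arrays, red for infarct, orange for remote and blue for sham upper, each panel with its own linear axis that starts at 0. At 1 week the infarct arrays of *Cfl1*, *Actn4*, *Tuba1a* and *Msn* lay above sham, those of *Cfl2*, *Actn2* and *Tuba4a* lay below it, and those of *Rdx* overlapped it.

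Of the 4 alpha-tubulin genes, 2 were higher and 2 lower in the infarct at 48 h and again at 1 week. *Tuba1a*, a form abundant in developing neurons and made in many other cells, was 8492, 10466 and 7569.8 in infarct, 4348, 5748 and 6796 in remote and 2894, 3063 and 3521 in sham at 48 h (1.46 ± 0.20, adjusted p = 5.27e-08). *Tuba1c* was called at 24 h, 48 h and 1 week, with 11597, 14741 and 13548 in infarct, 8417, 9533 and 11417 in remote and 9169.9, 7782 and 5091 in sham at 48 h (0.89 ± 0.27, adjusted p = 0.00532). Infarct exceeded sham without overlap for both, although sham arrays of *Tuba1c* varied widely. *Tuba4a* (chromosome 1, 75214972 to 75221261 in GRCm38.p6), a form whose tail lacks the encoded tyrosine, was 363.1, 537 and 675 in infarct, 1051, 1399.6 and 1053 in remote and 1778, 1740.0 and 1772 in sham at 48 h (-1.70 ± 0.25, adjusted p = 3.58e-07). At 1 week it was 479, 540.2 and 209 in infarct, 658, 1531 and 822 in remote and 2128, 2168 and 2095 in sham, 5.20-fold lower in infarct (-2.35 ± 0.25, adjusted p = 1.34e-10) and -1.14 ± 0.25 in remote (adjusted p = 3.78e-04). Infarct, remote and sham did not overlap, and the lowest infarct array was the one with the lowest cardiomyocyte sum.

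*Tuba8*, a form of heart, muscle, testis and brain, was 753, 671 and 768 in infarct, 1106, 1009.8 and 928 in remote and 1396, 1349.6 and 1132 in sham at 24 h (-0.79 ± 0.14, adjusted p = 1.42e-05). *Tuba8* was 586, 667 and 673 in infarct, 1022, 1223 and 1079.6 in remote and 1560.1, 1618 and 1297 in sham at 48 h (-1.16 ± 0.14, adjusted p = 6.07e-09). By 1 week it was 453, 504 and 430.0 in infarct, 818, 1370.3 and 805 in remote and 1434, 1873 and 1527 in sham (-1.70 ± 0.14, adjusted p = 1.39e-13). It was lower without overlap from 24 h to 8 weeks, when it was 1243, 1164 and 1014 in infarct and 1503, 1582 and 1594 in sham (-0.44 ± 0.14, adjusted p = 0.0215). *Tuba8* and *Myo10* were the 2 members still lower in the infarct at 8 weeks.

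Of 7 beta-tubulin genes, 4 were higher in the infarct at 24 h, 48 h and 1 week, 1 at 8 weeks, and none was lower at these times. *Tubb6*, a form made in many tissues, had the largest log2 change of the 55 genes at 24 h. *Tubb6* was 1712, 1738 and 1479.7 in infarct, 1527, 1365 and 1165 in remote and 733, 863 and 766 in sham at 4 h (1.02 ± 0.19, adjusted p = 2.29e-04; for remote 0.74 ± 0.19, adjusted p = 0.0290). It was 5689, 6856 and 3738 in infarct, 1201, 2032 and 1526 in remote and 682, 517.2 and 439.8 in sham at 24 h (9.94-fold for infarct, 3.19 ± 0.19, adjusted p = 1.33e-16; for remote 1.43 ± 0.19, adjusted p = 1.82e-06). At 48 h it was 6206, 6485 and 6589 in infarct, 2060.1, 1991 and 2322 in remote and 718, 774 and 894 in sham (2.95 ± 0.19, adjusted p = 1.79e-15; for remote 1.37 ± 0.19, adjusted p = 4.62e-06). Infarct and remote both stood wholly above sham from 4 h to 1 week, and apart from each other from 24 h to 1 week. The sham group of 24 h was the lowest of the 6 times for this gene, with a mean of 546.2. Against the sham lower array alone the infarct change was 2.62 at 24 h and 2.92 at 48 h. At 1 week *Tubb6* was 3474, 4358 and 3079 in infarct, 1147, 2281 and 1860.0 in remote and 886, 884 and 836 in sham (2.0 ± 0.19). At 8 weeks *Tubb6* was 809.6, 821 and 1075 in infarct, 726, 711 and 841 in remote and 751, 796 and 730.1 in sham, with no call (adjusted p = 0.418). In the infarct *Tubb6* was thus called higher from 4 h, *Capg* and *Tmsb10* from 24 h and *Myo7a* at 1 week.

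*Tubb5*, the general beta-tubulin, was 5144, 6624 and 5249.6 in infarct, 2878, 3557 and 2804 in remote and 2156, 1895 and 2163 in sham at 48 h (1.43 ± 0.16, adjusted p = 1.42e-09). *Tubb2a*, abundant in neurons but made in many tissues, was 3059, 2338 and 1435 in infarct, 2753, 1661 and 1702 in remote and 1133, 808 and 679 in sham at 24 h (1.29 ± 0.25, adjusted p = 3.95e-05; for remote 1.14 ± 0.25, adjusted p = 0.00268), and its infarct change was 0.76 with no call against the sham lower array alone. It was 3873, 3974 and 3646 in infarct, 2600.0, 3648 and 3152 in remote and 928, 1215 and 1182 in sham at 1 week (1.76 ± 0.25, adjusted p = 6.23e-08; for remote 1.46 ± 0.25, adjusted p = 1.02e-05), while a second probe set was not called there (-0.06). *Tubb3*, the class III form of neurons, was called at 24 h, 48 h and 1 week (0.87, 0.93 and 0.75), and its probe set is among those with shared probes. *Tubb4a*, *Tubb4b* and *Tubb2a-ps2* were not called against sham.

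**Figure D5:**
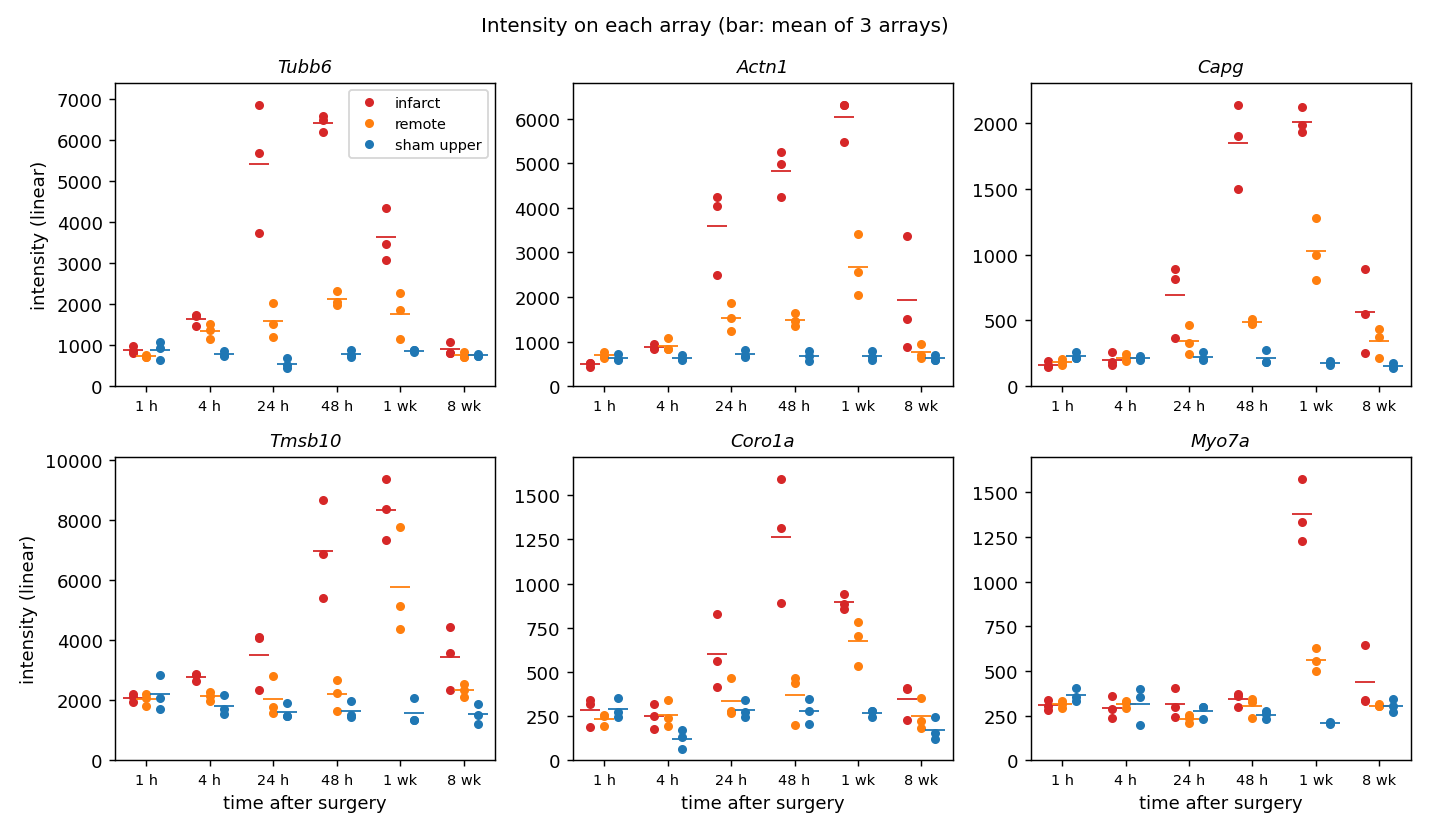
Intensity on each array at 6 times for *Tubb6*, *Actn1*, *Capg*, *Tmsb10*, *Coro1a* and *Myo7a*. Points are single arrays and bars are means of 3 arrays, red for infarct, orange for remote and blue for sham upper, each panel with its own linear axis that starts at 0. *Tubb6* was already high at 24 h, *Coro1a* was highest at 48 h, *Actn1*, *Capg* and *Tmsb10* were highest at 1 week, and *Myo7a* left the sham level at 1 week.

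Of 4 genes of gamma-tubulin and its ring, 1 was lower in the infarct at 24 h, and 2 were higher and 1 lower at 1 week. *Tubg1*, the gamma-tubulin of centrosomes, fell at 24 h to 139, 183 and 74.6 in infarct, against 253, 178 and 252 in remote and 568, 367 and 250.4 in sham (-1.29 ± 0.24, adjusted p = 3.00e-05). The sham lower array at 24 h read 184, just above the highest infarct array, and against it alone the change was -0.49 (adjusted p = 0.329). Sham lower was below sham upper in 5 of 5 pairs (-0.37, unadjusted p = 0.0187, adjusted p = 0.268). At 4 h it was 201, 244 and 164 in infarct, 259, 153 and 225 in remote and on average 422 ± 44.9 (SD) in sham, lower in both infarct (-0.92 ± 0.24, adjusted p = 0.00781) and remote (-0.88 ± 0.24, adjusted p = 0.0453), while infarct against sham lower alone gave -0.59 with no call. *Tubgcp4*, a subunit of the ring that holds gamma-tubulin, was 478, 561 and 537 in infarct, 403, 321 and 409 in remote and 286, 261 and 254 in sham at 1 week (0.87 ± 0.14, adjusted p = 5.89e-07). *Tubgcp3* was called at 48 h, 1 week and 8 weeks (0.44, 0.64 and 0.50). At 1 week both ring genes were higher in the infarct and *Tubg1* was lower (-0.66), and *Tubg2* was not called. Against the sham lower array alone these changes were 0.47 for *Tubgcp4*, 0.40 for *Tubgcp3* and -0.07 for *Tubg1*, and *Tubgcp4* alone was called. *Actr6*, a nuclear protein of chromatin remodelling, was 250.1, 168 and 174 in infarct, 292, 279 and 411 in remote and 424, 417 and 484 in sham at 24 h (-1.0 ± 0.20, adjusted p = 9.56e-05). At 1 week *Actr6* was lower in infarct (-0.65 ± 0.20) and remote (-0.82 ± 0.20).

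In remote myocardium 31 of the 55 members were higher than in sham at 1 or more times and 6 lower, most of them at 1 week, and 19 were called at no time. Among all genes 27.6% were higher in remote at 1 or more times, 22% were lower and 52.5% were called at no time. These changes share the sham arrays with those of the infarct. At 1 h 3 members were higher (*Capza2*, *Capzb* and *Pfn2*), with 8.02% of all genes called (5.52% higher and 2.5% lower), and at 4 h 1 was higher and 1 lower, with 1.74% of all genes called (1.42% higher and 0.315% lower). At 24 h 9 were higher and none lower (16.4% of the 55, against 4.5% of all genes), and at 48 h 13 were higher and none lower (23.6%, against 8.82%). Among all genes 2.94% were higher and 1.56% lower at 24 h, and 4.47% higher and 4.35% lower at 48 h. The 9 at 24 h were *Tubb6*, *Tubb2a*, *Msn*, *Actn1*, *Actn4*, *Tubb3*, *Vcl*, *Actr3* and *Capza1*. At 1 week 26 were higher and 5 lower (56.4%, against 38.4% of all genes, 20.7% higher and 17.7% lower). Both the 26 and the 31 higher at 1 or more times include *Myo5a*, whose test is not independent of the filter. The median log2 change of the 55 in remote was 0.16 at 24 h, 0.15 at 48 h and 0.31 at 1 week, beside -0.04, -0.02 and 0.05 for all genes. Without 1 of the sham arrays the remote calls were 1 at 1 h, 0 at 4 h and 8 at 48 h.

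The largest remote rises at 1 week were those of *Capg* (2.25 ± 0.26, adjusted p = 1.27e-08), *Actn1* and *Tmsb10* (1.82 ± 0.24, adjusted p = 1.01e-07), and the falls were those of *Tuba4a*, *Pfn2*, *Actr6*, *Tuba8* and *Myo10*. At the same time 18 of 19 macrophage genes, 13 of 14 pan-leukocyte genes and 10 of 13 fibroblast genes were higher in remote than in sham, while 1 of 13 cardiomyocyte genes was higher and 2 were lower, and the part of these shifts was not tested. At 8 weeks limma called no member in remote, and 0.12% of all genes. An unadjusted p below 0.05 was found for 7 members (*Actn4*, *Arpc4*, *Capg*, *Capza1*, *Msn*, *Tmsb10* and *Tubgcp3*). The share of all genes at that unadjusted level was not counted, so the 7 cannot be set against it.

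Infarct was also set against remote directly. At 1 h 4 members were higher and 3 lower, with 5.08% of all genes called (3.16% higher and 1.92% lower): *Tubb4b* (1.05 ± 0.26), *Arpc5l* (0.53), *Tln1* (0.45) and *Arpc5* (0.43) were higher, and *Capzb* (-0.89 ± 0.23), *Pfn2* (-0.40) and *Arpc1a* (-0.30) were lower. At 4 h limma called no member and 1.42% of all genes (0.705% higher and 0.72% lower), and 4 members had an unadjusted p below 0.05 (*Arpc1a*, *Arpc5*, *Myo10* and *Myo1f*). The share of all genes at that unadjusted level was not counted here either. At 24 h 16 were higher and 5 lower (38.2% of the 55, against 33.3% of all genes), at 48 h 28 were higher and 9 lower (67.3%, against 48.1%), and at 1 week 24 were higher and 7 lower (56.4%, against 41.2%). The higher counts at these times include *Myo5a*, whose test is not independent of the filter. Among all genes 15.5% were higher and 17.8% lower at 24 h, 24.4% higher and 23.6% lower at 48 h, and 22.8% higher and 18.4% lower at 1 week. Without 1 of the infarct arrays, 0 members were called at 1 h, 9 at 24 h and 20 at 1 week.

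At 48 h *Capg* differed most between infarct and remote (1.81 ± 0.24, adjusted p = 8.96e-08), followed by *Coro1a* (1.70 ± 0.26), *Actn1* (1.66 ± 0.22) and *Tmsb10* (1.64 ± 0.22), and *Tuba4a* was lowest (-1.12 ± 0.23, adjusted p = 1.31e-04). *Vim* was lower in infarct than in remote at this time (-0.88 ± 0.27, adjusted p = 0.00657), at 66.9, 46.3 and 101 in infarct, all under the filter, and 158, 131 and 218 in remote. At 1 week *Myo7a* (1.22 ± 0.17, adjusted p = 1.71e-07) and *Actn1* (1.18 ± 0.22) led the rises, and *Tuba4a* (-1.21 ± 0.23), *Myo5b* (-1.09 ± 0.15) and *Tuba8* (-1.0 ± 0.13) the falls. At 8 weeks 3 members were higher and none lower, with 6.49% of all genes called (3.78% higher and 2.71% lower): *Actn1* (1.10 ± 0.22, adjusted p = 0.00448), *Myo1d* (0.53 ± 0.16) and *Myo6* (0.48 ± 0.14). Without the third infarct array of 8 weeks none of the 3 was called.

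The change over time was tested as a difference of differences from sham. Over all 6 times, the infarct difference of 44 of the 55 members varied, beside 64.7% of all genes, with the smallest adjusted p for *Tubb6* (3.62e-13), *Actn1* (4.61e-11) and *Capg* (5.50e-11). Between 24 h and 1 week the difference moved up for 17 members and down for 9, with 39% of all genes called (23.2% up and 15.8% down). The 17 and the 44 both include *Myo5a*, whose test is not independent of the filter. *Myo7a* (2.33 ± 0.26, adjusted p = 4.47e-09), *Capg* (1.82 ± 0.37, adjusted p = 1.34e-04) and *Tmsb10* (1.30 ± 0.33, adjusted p = 0.00165) moved up most. *Tuba4a* (-1.70 ± 0.36, adjusted p = 1.93e-04), *Cfl2* (-1.41 ± 0.24, adjusted p = 8.62e-06) and *Actn2* (-1.23 ± 0.35, adjusted p = 0.00461) moved down most. The difference also moved down for *Tubb6* (-1.19 ± 0.27, adjusted p = 4.87e-04) and *Vcl* (-0.51 ± 0.14, adjusted p = 0.00447), whose rise against sham upper was largest at 24 h. For *Tubb6* the sham upper group of 24 h was its lowest, and against sham lower alone its rise was larger at 48 h (2.92) than at 24 h (2.62).

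Between 1 week and 8 weeks the difference moved down for 22 members and up for 6, with 36.8% of all genes called (16.6% up and 20.2% down). The 22 also include *Myo5a*. *Myo7a* (-2.06 ± 0.26, adjusted p = 8.80e-08), *Tubb6* (-1.77 ± 0.27, adjusted p = 2.24e-06), *Capg* (-1.77 ± 0.37, adjusted p = 2.15e-04) and *Actn1* (-1.73 ± 0.34, adjusted p = 8.38e-05) came down most. The 6 that moved up were *Tuba4a* (1.78 ± 0.36, adjusted p = 1.26e-04), *Tuba8* (1.26), *Pfn2* (1.20), *Myo5b* (1.07), *Cfl2* (0.88) and *Myo10* (0.59), all of them members that had been lower at 1 week. The same 1-week values enter this contrast and the calls at 1 week, so the match between them is partly built in. These 2 contrasts share the arrays of 1 week. The sham group of that time was the highest of the 6 for *Pfn2*, *Tuba8* and *Myo10* and the lowest for *Myo7a*, which enters their contrasts.

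Sham itself was not constant. Across the 6 sham upper groups 12 of the 55 members varied, beside 20.4% of all genes, with the smallest adjusted p for *Capza2* (group means 1279 to 2163), *Tln1* (2428 to 3376) and *Pfn2* (451 to 669). The fall of *Pfn2* at 1 week was therefore measured against its highest sham group, at 255 in infarct and 669 in sham. The sham group of 1 week was also the highest for *Myo10* (mean 1125) and *Tuba8* (1611). It was the lowest for *Arpc5* (375.4), *Myo7a* (209.8) and *Cfl1* (1902). Of these 5 further members, limma's F test called a change of sham over the times for *Arpc5* alone (adjusted p = 0.0114). The 5 sham lower arrays were compared with the 5 sham upper arrays of the same title numbers, as pairs, and limma called no member and no gene. At an unadjusted p below 0.05 there were 6 members (*Pfn1*, *Msn*, *Myo10*, *Tubg1*, *Arpc5* and *Tubgcp4*), beside 14.4% of all genes.

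Other genes of the same machinery were counted from lists of known roles. For comparison, 18.6% of all genes were higher and 24% lower in the infarct at 24 h, and 25.1% and 25.8% at 48 h. These shares were 34.9% and 25.7% at 1 week, and 11.5% and 9.66% at 8 weeks. Of 24 tested genes of non-muscle actins and filament bundling, 11 were higher and 1 lower in the infarct at 24 h, 12 and 3 at 48 h, 16 and 4 at 1 week and 8 and 1 at 8 weeks. At 1 week they included the calponin gene *Cnn3* (2.0) and *Cap1* (1.90), a monomer-recycling protein, and the severing protein gene *Gsn* (-1.84) was lower. Of 20 focal adhesion adaptor genes 12 were higher and 4 lower at 1 week, with *Csrp2* (2.9) and *Csrp1* (2.39) higher and *Csrp3* (-2.02), the muscle LIM protein of cardiomyocytes, lower.

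Of 35 microtubule-associated genes 14 were higher and 11 lower at 1 week, when 34.9% of all genes were higher and 25.7% lower. The mitotic kinesin genes *Kif20a* (3.42) and *Kif22* (2.56) were higher, and *Mapt* (-3.49), which encodes tau, and *Clip1* (-2.11), a plus-end protein, were lower. Of 13 genes of the CCT chaperonin and prefoldin, which fold actin and tubulin, 8 were higher and none lower at 48 h, and 2 were higher and 2 lower at 1 week. Of 6 non-muscle myosin II genes 3 were higher and 2 lower at 1 week, with *Myh9* (1.48) higher and *Myh14* (-1.60) lower. Of 11 genes listed for other intermediate filaments and their linkers, 10 were higher and none lower at 1 week, with a median log2 change of 1.00. Among them were the linker gene *Plec* (1.70) and the keratin gene *Krt19* (1.66).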

How the data were processed

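The files hold 1 table per array with an intensity for each of 12488 probe sets, as deposited by the authors. The deposited values had been scaled to a common level, as the values themselves show: the mean between the 2nd and 98th percentile was 499.2 to 499.9 on every array. No tool is named for this step in the labels. Detection calls were not used.

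Intensities were not normalized again. The offset of 45.6 is 0.25 times the median of all values, and the filter of 108.2 is their 40th percentile. limma 3.58.1 in R 4.3.3 fitted 23 groups over 59 arrays with the title number as a random block (correlation 0.148, 36 residual and 4.43 prior degrees of freedom), with Benjamini-Hochberg adjustment over 6670 genes for each contrast. The procedure was run on simulated data with changes in the 24 h infarct group alone, and no result here rests on that run. Of 17 pairs of infarct and remote arrays with the same number, deviations correlated above 0.1 in 7 (lowest -0.098, median 0.033, highest 0.418), so the data do not settle whether the numbers pair samples. Genes and probe sets were named from the platform annotation, and probe sets assigned to several genes were left out of the tests.

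Members and lists were chosen with earlier results of these data known. Values on every array are given by a fixed rule: at each time the up to 4 largest rises and 3 largest falls in the infarct among called members whose arrays did not overlap, up to 2 each in remote, members called in both directions, the 3 smallest adjusted p in sham, and the brightest member of each role. A panel of familiar genes was named whatever the result. Alternatives were 2 other offsets (0.05 and 1 times the median), no replicate block, all probe sets of a gene, quantile normalization, testing without the filter, fits of the compared groups alone, other sham controls and leaving out each array.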

Additional observations from a re-analysis of the deposited data

Results flagged for a closer look

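The infarct difference from sham varied between the 6 times for 44 of the 55 tested members, beside 64.7% of all genes. Between 24 h and 1 week it moved up for 17 members and down for 9, beside 39% of all genes called (23.2% up and 15.8% down), and between 1 week and 8 weeks up for 6 and down for 22, beside 36.8% (16.6% up and 20.2% down). Each count is from limma's test of the difference of differences. The 44, the 17 and the 22 include *Myo5a*, whose test is not independent of the filter. *Arpc1a* was called lower at 4 h and 24 h and higher at 48 h, and the limma F test of its variation over the times gave an adjusted p of 0.00249.

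A probe set assigned to both *Arpc1b*, the other gene for the p41 subunit, and the predicted gene *Gm5637* was outside the comparisons because it does not belong to 1 gene. At 1 week it read 2375, 2652 and 2639 in infarct, 1797, 1262 and 1978 in remote and 936, 710.0 and 644 in sham, a log2 difference of 1.70 between infarct and sham. A probe set shared by *Tuba1a*, *Tuba1b*, *Tuba1c* and *Gm5620* read 9038, 10572 and 9532 in infarct, 9618, 13813 and 10393 in remote and 6791, 8091 and 8037 in sham at 1 week, a log2 difference of 0.35. Groups of 3 arrays were not examined for outlying arrays.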

How the results depend on the processing

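Counts are of the 55 tested members. Against sham upper at 1 h, infarct calls numbered 3, and 7 with every probe set, 0 with only the 2 groups compared, 1 with sham upper and lower together and 0 with the sham lower array alone, an alternative chosen after seeing the data. With that array alone infarct calls were 1 at 4 h (10 in the report) and 18 at 24 h (31). With only the 2 groups compared, and so few arrays to estimate the spread, remote calls were 1 at 1 h, 1 at 4 h, 3 at 24 h and 4 at 48 h, infarct calls 0 at 8 weeks, and infarct against remote 0 at 1 h, 4 at 24 h and 0 at 8 weeks. Remote calls at 4 h (2) were 1 with the smaller offset, with no filter and with both sham regions. Without the replicate block, infarct against remote gave 3 calls at 1 h (7) and 1 at 8 weeks (3), where quantile normalization gave 5 and no filter 1. The cause of these changes was not tested. Over leave-one-out, infarct calls ranged over 1 to 3 at 1 h (1 without the first sham array), 6 to 7 at 4 h (6 without the second sham array) and 11 to 25 at 8 weeks (11 without the third infarct array). Remote calls ranged over 1 to 3 at 1 h (1 without the first sham array), 0 to 1 at 4 h (0 without the first sham array) and 8 to 14 at 48 h (8 without the second sham array). Infarct against remote ranged over 0 to 6 at 1 h (0 without the first infarct array), 9 to 20 at 24 h (9 without the second infarct array), 20 to 28 at 1 week (20 without the third infarct array) and 0 to 14 at 8 weeks (0 without the third infarct array). Counts under the other settings stayed within 1.5 times.

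The following values changed sign: *Arpc4* at 24 h (-0.12) and *Myo9a* at 48 h (-0.010) in infarct when sham lower served alone, and, when every probe set was tested, *Myo5b* at 24 h (0.60) and *Capzb* at 48 h (-0.61) in infarct against remote. Under quantile normalization the median over all genes at 1 week shifted by -0.18 in infarct and -0.11 in remote against sham, which reversed no called member. Near-identical tubulins and dim probe sets such as that of *Vim* limit what these intensities can tell apart.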
